A study of Mus musculus with 8 samples.

Results

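Desmosomal plakins and simple keratins were followed in p53-null mouse marrow stromal cells with and without a cFos retrovirus. Every entry of the 8 deposited tables whose RefSeq transcript maps to one of 10 gene symbols was taken, 10 of 23500 genes, with 1 transcript entry each. The genes are the plakins Ppl, Evpl and Dsp, the armadillo proteins Jup, Pkp1 and Pkp2, and the keratins Krt7, Krt8, Krt18 and Krt19. They were proposed with the difference between cFos and Luc cultures already known, and Ppl is among the larger rises. Their differences between these groups are therefore given as a description with no p-value, and none of them supports a claim about the set.

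The tested libraries came from cFos cultures, p53 knockout mBMSCs (marrow-derived stem cells of mouse) transduced with cFos, the product of Fos, which forms AP-1 transcription factors with Jun proteins. The control libraries came from Luc cultures, the same lines given luciferase in the same kind of retrovirus. Both groups lack p53, were kept in MesenCult medium below passage 20, and consist of single clones numbered 2, 4, 8 and 12. Each clone gave 1 library of each virus, so n is 4 per group, an SD is the spread between clonal lines, and no culture was repeated within a clone. A name such as cFos 8 stands for the cFos library of clone 8.

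Desmosomes are adhesion plaques that tie the intermediate filaments of neighbouring cells together, and they are characteristic of epithelia and heart muscle. Desmosomal cadherins cross the membrane, armadillo proteins bind their tails, and plakins connect the plaque to the filaments. In simple epithelia these filaments are keratins, and each filament needs both an acidic type I chain (Krt18, Krt19) and a basic type II chain (Krt7, Krt8). Mesenchymal cells build their filaments from vimentin instead and normally lack desmosomes.

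The libraries held 6.93 to 9.14 gigabases of sequence aligned to transcripts. Fos, the transduced gene, stood at 589, 675, 1019 and 505 FPKM in cFos 2, 4, 8 and 12, against 76.2, 41.1, 302 and 43.5 FPKM in Luc. FPKM is a fragment count scaled to transcript length and library size. Luc 8 thus had the highest Fos of the Luc libraries. The abundant stromal markers matched the stromal label, while others were low: Col1a1 and Col1a2, the chains of type I collagen, were at 831 FPKM or more in every library. Of 16 stromal markers all reached 1 FPKM in some library and 14 could be tested. Vim, Pdgfrb and Zeb1 rose in cFos (limma adjusted p = 0.00676, 0.0442 and 0.00585) and none fell, where 2.92% of all tested genes rose. The list was chosen with earlier results of these data known, so nothing is read from this share. The 16 markers summed to 7551 to 11173 FPKM in cFos and 3981 to 7061 FPKM in Luc, largely through Vim, Col1a1 and Col1a2. Snai2, a mesenchymal transcription factor, was at 41.8, 32.2, 57.7 and 39.4 FPKM in cFos 2, 4, 8 and 12, against 108, 60.04, 191 and 56.3 FPKM in Luc. It was lower in cFos in each clone with overlapping groups, and fell in limma with clone as a block (adjusted p = 0.0243) but did not pass without it (0.131). Thy1, a surface antigen used to define such cells, was at 15.9 and 23.8 FPKM in cFos 8 and cFos 12 and 21.9 FPKM in Luc 12, and at or below 0.672 FPKM in the 5 other libraries. Eng and Nt5e of the same list were also low. Eng was at 0.501 to 2.12 FPKM in cFos and 0.258 to 1.28 FPKM in Luc. Nt5e was at 0.552 to 7.94 FPKM in cFos and 0.167 to 2.48 FPKM in Luc. Cdh1, the epithelial cadherin, stayed at or below 0.0949 FPKM in cFos and 0.326 FPKM in Luc. All 7 mesothelial, 6 urothelial, 10 trophoblast, 6 endothelial and 6 blood markers present in the files were too low to be tested, with summed levels of at most 1.99, 0.962, 1.46, 0.150 and 0.312 FPKM in cFos and 0.778, 0.763, 0.887, 0.432 and 0.369 FPKM in Luc. The endothelial cadherin gene Cdh5 and the trophoblast genes Cdx2, Tfap2c, Hand1 and Tpbpa were listed at 0 throughout. In bulk RNA, fewer cells that express a gene and less RNA per cell cannot be told apart.

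Promoter sequences were available for 5 of the 10 genes (Dsp, Jup, Krt7, Krt8 and Krt18), and none for Ppl, Evpl, Pkp1, Pkp2 or Krt19. The 250 bases before the start are shown for the 3 simple keratins, which include the neighbouring partner genes Krt8 and Krt18, and for Jup, the plaque protein expressed in every library. They are read 5′ to 3′ on the gene's strand from RefSeq build GRCm38.p6, at chr15:101412153-101412402, plus strand; chr15:102004343-102004592, minus strand; chr15:102027966-102028215, plus strand; and chr11:100397791-100398040, minus strand. Capitals mark GGGCGG, the Sp1 motif, on either strand.
Krt7: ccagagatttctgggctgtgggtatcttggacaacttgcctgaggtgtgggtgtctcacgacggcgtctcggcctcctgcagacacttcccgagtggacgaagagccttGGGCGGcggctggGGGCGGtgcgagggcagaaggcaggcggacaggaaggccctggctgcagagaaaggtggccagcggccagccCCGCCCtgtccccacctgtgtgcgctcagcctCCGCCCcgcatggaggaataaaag
Krt8: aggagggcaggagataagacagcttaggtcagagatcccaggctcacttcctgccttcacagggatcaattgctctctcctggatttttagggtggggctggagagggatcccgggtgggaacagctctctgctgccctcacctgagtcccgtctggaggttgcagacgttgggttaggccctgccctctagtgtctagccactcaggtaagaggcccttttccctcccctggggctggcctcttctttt
Krt18: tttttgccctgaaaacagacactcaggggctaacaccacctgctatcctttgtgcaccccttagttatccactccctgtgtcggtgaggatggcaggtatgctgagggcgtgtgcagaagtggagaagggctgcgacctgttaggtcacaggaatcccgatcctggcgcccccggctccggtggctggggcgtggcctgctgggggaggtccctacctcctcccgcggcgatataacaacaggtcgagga
Jup: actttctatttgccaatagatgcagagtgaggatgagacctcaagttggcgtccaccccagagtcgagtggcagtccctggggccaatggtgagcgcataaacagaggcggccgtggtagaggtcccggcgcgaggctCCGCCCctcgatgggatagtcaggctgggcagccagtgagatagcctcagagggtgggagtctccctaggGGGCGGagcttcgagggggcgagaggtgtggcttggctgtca
AP-1 was searched as TGANTCA, where N is any base, a pattern broader than the letters that Fos and Jun dimers prefer. It had no match in the windows of these 4 genes or of Dsp, on either strand. This broader pattern occurs in 6.75% of 32851 promoter windows of the same length. The related TGACGTCA (1.55% of windows) and the TATA box letters TATAAA (12.4%) also had no match in the 5 windows. GGGCGG, present in 32.7% of windows, matched 4 times in Krt7 (141, 128, 56 and 24 bases before the start), 4 times in Dsp, 2 times in Jup (112 and 42 bases before the start) and not in Krt8 or Krt18. These are matches of letters in a short window and no record of binding.

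**Figure D1:**
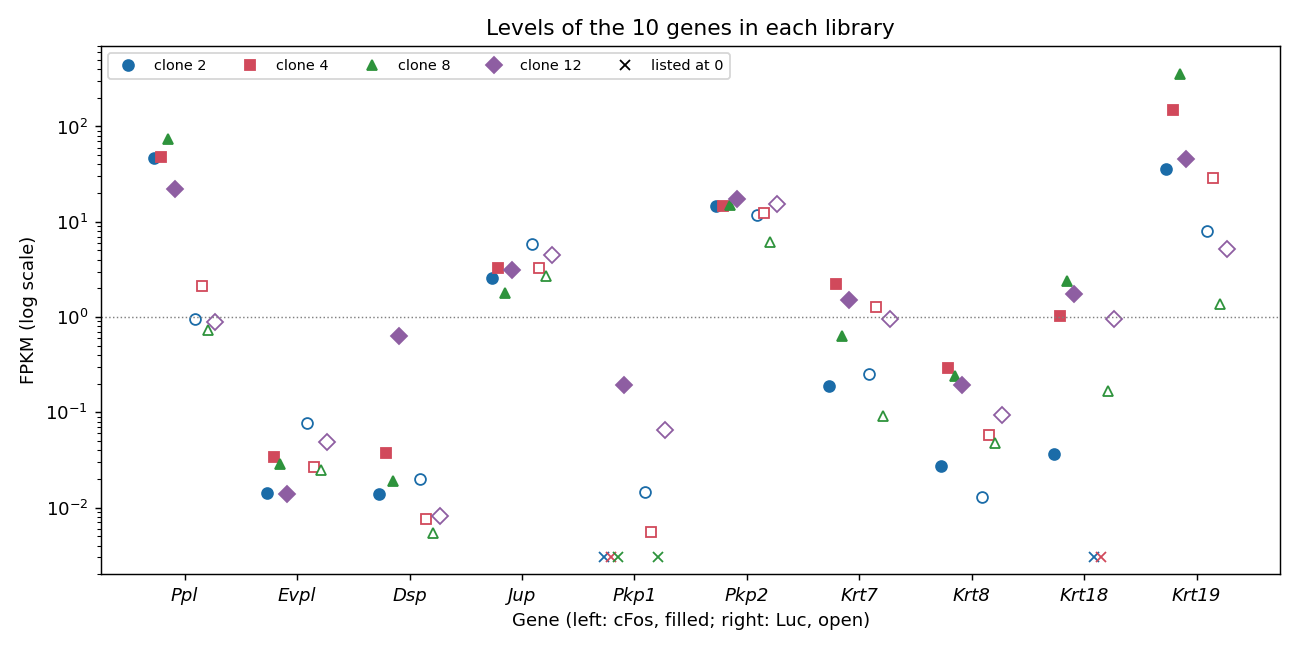
FPKM on a log scale for the 10 genes, with 4 cFos libraries (filled, left) and 4 Luc libraries (open, right) per gene, marked by clone; crosses at the bottom are values listed at 0 and the dotted line is 1 FPKM. Ppl and Krt19 are the genes whose 4 cFos points all lie above their 4 Luc points, and Evpl, Dsp, Pkp1 and Krt8 stay below 1 FPKM in all 8 libraries.

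The 10 genes covered a wide range of levels, as the plot of all 10 genes shows. Krt19, Pkp2 and Jup reached 1 FPKM in all 8 libraries, and Ppl reached it in the 4 cFos libraries and 1 Luc library. Krt7 and Krt18 did so in 3 libraries each, and Evpl, Dsp, Pkp1 and Krt8 in none. Only genes that reached 1 FPKM in 4 or more libraries were tested. This admitted Ppl, Jup, Pkp2 and Krt19 and left 6 out, and Ppl passed through the cFos group, where it is high. In cFos the order by mean FPKM, a level per transcript length, was Krt19 (147 ± 149), Ppl (47.7 ± 21.1), Pkp2 (15.4 ± 1.39) and Jup (2.71 ± 0.684), where Krt19 and Ppl overlap (SD, n = 4). In Luc the order was Pkp2 (11.4 ± 3.92), Krt19 (10.8 ± 12.2), Jup (4.08 ± 1.41) and Ppl (1.17 ± 0.630), and Pkp2 and Krt19 do not differ beyond their spread.

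Of the 10 genes, 5 were higher in cFos than in Luc within every clone: Ppl, Pkp2, Krt8, Krt18 and Krt19. That held for 12.7% of the 18753 genes with any signal. Ppl and Krt19 had no overlap between the groups, with cFos above Luc, which was so for 5.09% of those genes. None was lower in cFos in every clone (16.8% of genes with any signal), and none lay without overlap below Luc (6.12%). Since the genes were proposed from this comparison, nothing is read from these shares. In clone 2 the deposited lower confidence limits of Krt8 and Krt18 were 0 in both libraries, so their order there is uncertain. The limits of Krt8 also overlapped in clone 12, at 0.0774 to 0.312 FPKM in cFos and 0.0173 to 0.172 FPKM in Luc.

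Ppl encodes periplakin, which links keratin and vimentin filaments to desmosomes and the cell cortex and is best known from the cornified envelope of skin. It lies on chromosome 16, 5086384 to 5132574 (mm9, as are all positions below unless RefSeq is named). The cFos libraries of clones 2, 4, 8 and 12 held 46.4, 48.3, 73.9 and 22.2 FPKM, against 0.952, 2.10, 0.734 and 0.883 FPKM in their Luc libraries. Every cFos library lay far above every Luc library, and the lowest cFos value was 10.5-fold the highest Luc value. On the scale of log2(FPKM + 0.5) the difference was 4.80 (SE 0.36), rank 9 among the rises of 11162 tested genes. Within clones the ratio was 48.8, 23.0, 101 and 25.1 in clones 2, 4, 8 and 12. The low Luc values were not empty: the deposited confidence limits of Luc 8, the lowest, were 0.621 to 0.847 FPKM, at a mean depth of 5.68 reads per base.

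The closest neighbour of Ppl is Ubn1, a chromatin protein gene whose annotated end lies 6 bases away. It held 12.8, 12.1, 13.1 and 12.2 FPKM in cFos and 17.3, 13.6, 15.5 and 11.2 FPKM in Luc for clones 2, 4, 8 and 12, and did not pass the test (log2 difference -0.17, limma adjusted p = 0.558). Evpl encodes envoplakin, the partner with which periplakin forms heterodimers in skin (chromosome 11, 116081873 to 116099405). It was nearly absent, at 0.0138 to 0.0344 FPKM in cFos and 0.0248 to 0.0769 FPKM in Luc, and the groups overlapped. The highest deposited upper limit for Evpl in any library was 0.109 FPKM, in Luc 2. High Ppl was thus measured beside an Evpl level that stayed below 0.1 FPKM in all 8 libraries. Cdk3, 272 bases from Evpl, was itself at or below 0.205 FPKM.

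Dsp encodes desmoplakin, the plakin without which desmosomes do not assemble (chromosome 13, 38243163 to 38290446). It was at 0.0140, 0.0379 and 0.0188 FPKM in cFos 2, cFos 4 and cFos 8, and between 0.00546 and 0.0199 FPKM in Luc. In cFos 12 it stood at 0.633 FPKM, with deposited limits of 0.545 to 0.721 and a mean depth of 4.74 reads per base. This 1 library lay above all others, and the remaining 3 cFos libraries overlapped with Luc.

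Among the armadillo genes, Jup encodes plakoglobin, which binds both desmosomal and classical cadherins (chromosome 11, 100230170 to 100259104). Its level was 2.59, 3.31, 1.79 and 3.14 FPKM in cFos 2, 4, 8 and 12, against 5.87, 3.27, 2.70 and 4.498 FPKM in the Luc libraries. It was lower in cFos in 3 clones and nearly level in clone 4, and the groups overlapped. The log2 difference was -0.49 (SE 0.26). Pkp2, plakophilin 2, the desmosomal plaque protein of simple epithelia and heart (chromosome 16, 16213438 to 16272805), had 14.5, 14.6, 15.1 and 17.5 FPKM in cFos, against 11.7, 12.2, 6.06 and 15.5 FPKM in Luc. All clones had more in cFos, by 1.24, 1.20, 2.50 and 1.13-fold, but the value of Luc 12 lay above 3 cFos libraries. Its log2 difference was 0.49 (SE 0.25). Pkp1, plakophilin 1 of stratified epithelia (chromosome 1, 137767972 to 137815601), was listed at 0 in cFos 2, cFos 4, cFos 8 and Luc 8, at 0.193 FPKM in cFos 12, and at 0.0145, 0.00551 and 0.0652 FPKM in Luc 2, Luc 4 and Luc 12.

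**Figure D2:**
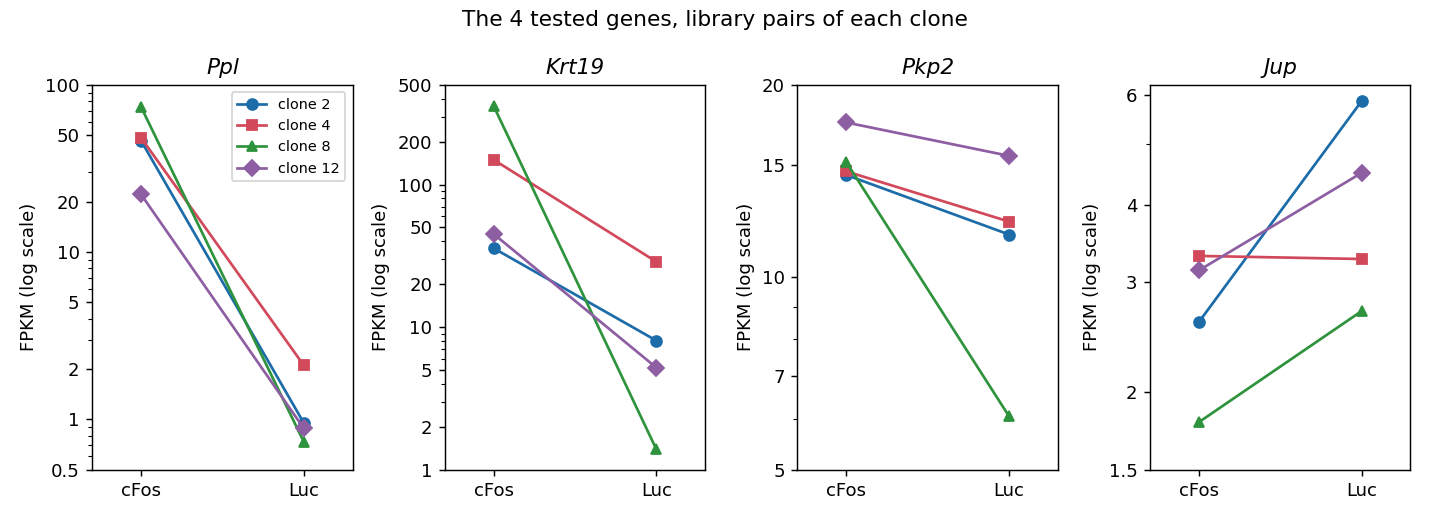
FPKM on a log scale in the cFos (left) and Luc (right) library of each clone, for the 4 tested genes, with a line joining the libraries of 1 clone. Ppl and Krt19 are higher in cFos in all 4 clones, Krt19 by 257-fold in clone 8 and by 4.45 to 8.67-fold in the others, and Pkp2 by 1.13 to 2.50-fold, while Jup is higher in cFos in clone 4 alone, by 1.01-fold.

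Krt19, the smallest keratin, a type I chain of simple and ductal epithelia (chromosome 11, 100002126 to 100007233), had the highest mean of the 10 genes in cFos, although Ppl was above it in cFos 2. It had 35.8, 149, 356 and 45.04 FPKM in the cFos libraries of clones 2, 4, 8 and 12, against 8.04, 28.7, 1.39 and 5.19 FPKM in their Luc libraries. The groups did not overlap, but they came close: the lowest cFos value, in clone 2, was 1.25-fold the highest Luc value, in clone 4. The log2 difference was 3.75 (SE 0.92), rank 25 among the rises of the tested genes. Clone 8 had the lowest Krt19 of the Luc libraries and the highest of the cFos libraries, a 257-fold ratio. Clones 2, 4 and 12 had ratios of 4.45, 5.20 and 8.67. With 1 library per clone and virus, whether clones respond differently could not be tested. By level, Krt19 was the 186th most abundant gene in cFos 8 and the 10718th in Luc 8.

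The other keratins of the set were scarce. Krt18, the type I partner of Krt8 (chromosome 15, 101858647 to 101862457), had 0.0363, 1.02, 2.38 and 1.73 FPKM in the cFos libraries of clones 2, 4, 8 and 12. In Luc it was listed at 0 in clones 2 and 4, and at 0.169 and 0.965 FPKM in clones 8 and 12. Each cFos library lay above the Luc library of its clone, while cFos 2 lay below Luc 8 and Luc 12. Krt8, its type II partner (chromosome 15, 101827142 to 101834773), had 0.0272, 0.293, 0.242 and 0.195 FPKM in cFos and 0.0129, 0.0584, 0.0476 and 0.0944 FPKM in Luc, and the groups overlapped through cFos 2. Both genes are known in mammals for processed pseudogenes, so values this low are uncertain. Krt7, a type II chain of ductal epithelia (chromosome 15, 101242834 to 101258237), had 0.189, 2.22, 0.633 and 1.497 FPKM in cFos and 0.253, 1.27, 0.0918 and 0.964 FPKM in Luc. It was higher in cFos in clones 4, 8 and 12 and lower in clone 2. The deposited limits of Krt7 overlapped in clone 2 (0.0793 to 0.298 FPKM in cFos, 0.130 to 0.375 FPKM in Luc). They also overlapped in clone 12 (1.14 to 1.85 FPKM in cFos, 0.699 to 1.23 FPKM in Luc), so the order within these clones is uncertain. By level the clones ran 4, 12, 8 and 2 in cFos and 4, 12, 2 and 8 in Luc.

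**Figure D3:**
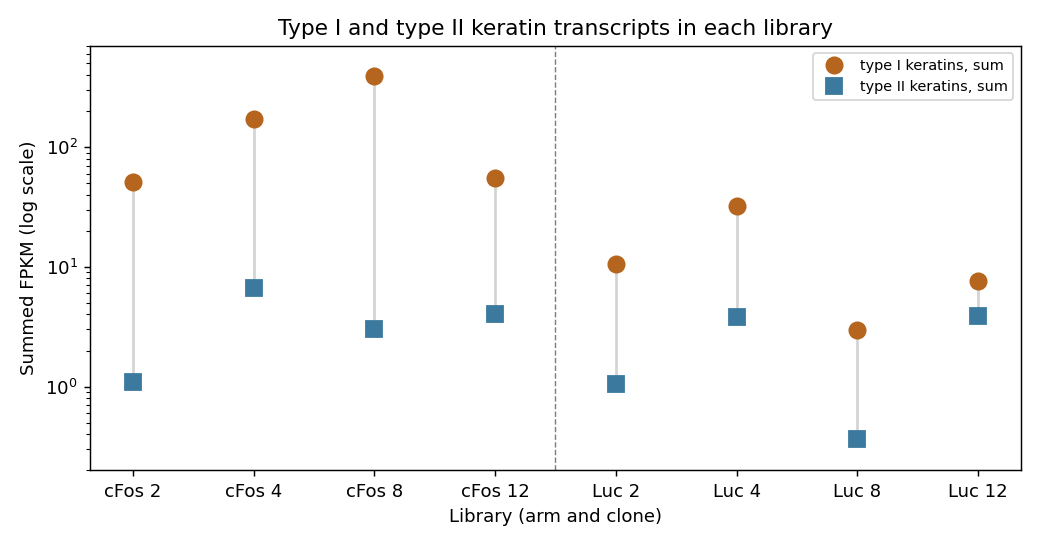
Summed FPKM (log scale) of type I keratins (circles, 27 genes) and type II keratins (squares, 26 genes) in each library, cFos on the left and Luc on the right. The type I sum is above the type II sum in all 8 libraries, and the gap is widest in cFos 8, at 131-fold.

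Summed type I keratin transcripts exceeded type II transcripts in each library, by a margin that was smallest in Luc 12 (1.95-fold). Over 27 type I and 26 type II keratin genes in the tables, classed by number, the type I sum was 51.2, 172, 393 and 55.1 FPKM in cFos 2, 4, 8 and 12, and 10.5, 32.4, 2.95 and 7.60 FPKM in Luc. The type II sum was 1.10, 6.63, 2.998 and 4.03 FPKM in cFos and 1.05, 3.84, 0.365 and 3.90 FPKM in Luc. The ratio of type I to type II was 13.7 to 131 in cFos and 1.95 to 10.05 in Luc, with no overlap, and most of it followed Krt19, a gene chosen from this comparison. Krt19 made up 79.5 ± 9.24% of all keratin FPKM in cFos and 58.9 ± 18.4% in Luc (SD, n = 4). Only Krt7 and Krt80 among type II genes reached 1 FPKM in any library, against 6 type I genes (Krt10, Krt13, Krt15, Krt18, Krt19 and Krt36). Krt80, a type II chain of differentiating epithelia, had 0.720, 3.09, 1.29 and 1.16 FPKM in cFos and 0.419, 1.82, 0.0162 and 1.35 FPKM in Luc, and did not pass the test (limma adjusted p = 0.520).

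**Figure D4:**
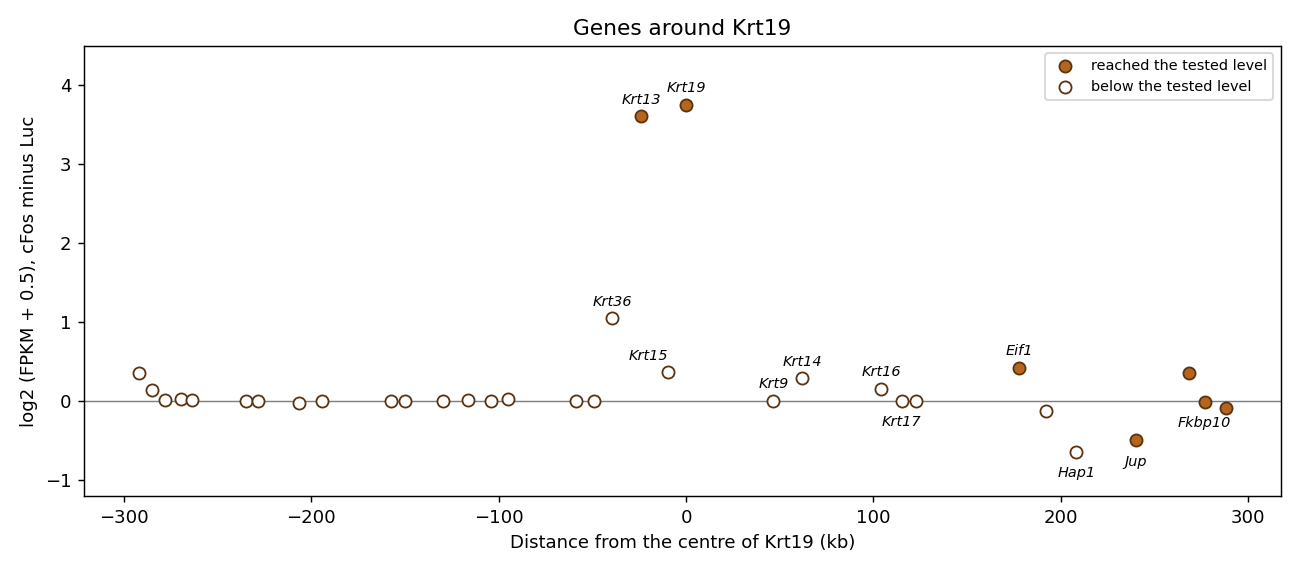
Difference of log2(FPKM + 0.5), cFos minus Luc, for the 33 genes whose centre lies within 300 kb of the centre of Krt19, against distance in kb; filled points reached the tested level and open points did not. Krt19 and Krt13 stand at 3.75 and 3.61, and every other gene in the window lies between -0.64 and 1.05. The added 0.5 FPKM shrinks the differences of scarce genes on this scale.

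Krt19 lies in the type I keratin cluster, and its neighbours were read from the same tables, a region chosen after its values were seen. Krt13, the type I chain of mucosal epithelia (chromosome 11, 99978910 to 99982809), is centred 23.8 kb away. It rose to 13.6, 20.2, 29.9 and 7.13 FPKM in cFos 2, 4, 8 and 12, against 1.12, 2.33, 0.137 and 0.542 FPKM in Luc (log2 difference 3.61, SE 0.52, limma adjusted p = 0.00559). All 4 cFos libraries lay above all Luc libraries, and clone 8 was again the lowest in Luc and the highest in cFos. Krt15, between Krt13 and Krt19, reached 1.01 FPKM in cFos 8 and stayed at or below 0.0670 FPKM in the other libraries. Krt36, on the far side of Krt13, had 0.551, 0.722, 2.89 and 0.233 FPKM in cFos and 0.436, 0.144, 0.0521 and 0.0172 FPKM in Luc. Krt9, Krt14, Krt16 and Krt17, on the other flank, were at or below 0.234 FPKM everywhere. Of these, Krt16 alone had no overlap, at 0.0417 to 0.0919 FPKM in cFos and at most 0.0172 FPKM in Luc. Eif1, a translation initiation factor gene 178 kb away, had means of 393 FPKM in cFos and 292 FPKM in Luc and did not pass the test (limma adjusted p = 0.0889).

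Differences between clones, a contrast the choice of genes did not use, were tested by a moderated F test in limma, on 3 clone terms fitted beside the virus. None of the 4 tested genes passed, with adjusted p = 0.493 for Ppl, 0.417 for Jup, 0.456 for Pkp2 and 0.634 for Krt19, and none had an unadjusted p under 0.05. Over all tested genes 54 passed, 0.484%, and 1839 had an unadjusted p under 0.05. The outcome for Krt19 depended on clone 8, since it passed when either library of that clone was left out. The term of clone 8 then rests on 1 library and fits it exactly, so nothing is read from that pass. The spread across clones was nonetheless wide, since the highest library was 9.95-fold the lowest for Krt19 in cFos and 20.7-fold in Luc, against 3.34 and 2.87-fold for Ppl, 1.85 and 2.18-fold for Jup and 1.21 and 2.56-fold for Pkp2.

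Genes most like each tested member were sought by Pearson r of log2(FPKM + 0.5) over the 8 libraries, which share the split into cFos and Luc. For Ppl they were Cadm4 (r = 0.993), Ngef (0.991) and Odf3l1 (0.991). Those for Krt19 were Dhrs9, a retinol dehydrogenase family gene (0.968), Myo5a, an actin motor (0.960), and Krt13 (0.957). Pkp2 was most like Nars, an asparaginyl-tRNA synthetase (0.981), Sfxn1 (0.974) and Mthfd1l (0.973), and Jup was most like Ints13 (0.960), Arv1 (0.959) and Tdg-ps2 (0.957). Between the members, r was 0.889 for Ppl and Krt19, 0.667 for Pkp2 and Krt19, 0.579 for Ppl and Pkp2, 0.012 for Jup and Pkp2, -0.524 for Jup and Krt19 and -0.650 for Ppl and Jup.

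The remaining genes of desmosomes, filaments and epithelia were read from 8 lists with 142 genes in the tables. Of these, 39 could be tested, 5 rose, 1 fell and 33 did not pass. That is 15.4% called, against 5.55% of all tested genes (2.92% higher and 2.62% lower in cFos). The median log2 difference was 0.10 against -0.06 over all tested genes. The lists were chosen with earlier results of these data known, so nothing is read from these shares and medians. Blocking on clone gave 6 that rose and 2 that fell, where 8.79% of all tested genes were called. Counts of listed genes at an unadjusted p under 0.05 in limma carry no share over all tested genes. Nothing is read from those counts.

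The desmosomal cadherins, which carry the adhesion itself, were essentially missing. Dsg1a, Dsg1b, Dsg1c and Dsg4 were listed at 0 in all libraries, and Dsg2, Dsg3, Dsc1, Dsc2 and Dsc3 did not exceed 0.359 FPKM in cFos or 0.0344 FPKM in Luc. Of the 12 other desmosome genes 1 could be tested, Pkp4, a plakophilin relative that also sits at other junctions, with 11.9 ± 2.53 FPKM in cFos and 10.7 ± 3.11 in Luc (limma adjusted p = 0.731). Pkp3, plakophilin 3, was too low to be tested but had 0.149, 0.268, 0.238 and 0.335 FPKM in cFos 2, 4, 8 and 12, against 0.00156 FPKM in Luc 2 and 0 in the 3 other Luc libraries. Pkp3 was singled out after its values were seen.

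Of 8 other plakin and hemidesmosome genes, 5 could be tested, 2 rose and none fell, with 2 higher and 1 lower at an unadjusted p under 0.05 in limma. Itga6, integrin alpha 6, the laminin receptor chain of hemidesmosomes (chromosome 2, 71624996 to 71696484), rose to 13.9, 9.31, 15.7 and 12.1 FPKM in cFos 2, 4, 8 and 12, against 1.28, 0.545, 0.357 and 2.91 FPKM in Luc (log2 difference 3.09, SE 0.40, limma adjusted p = 0.00383). Its hemidesmosome partner Itgb4 stayed at or below 0.306 FPKM in cFos and 0.233 FPKM in Luc. Plec, which encodes plectin, a plakin that links filaments of several kinds to junctions (chromosome 15, 76001404 to 76061808), rose to 70.6, 89.7, 87.3 and 55.6 FPKM in cFos, against 27.5, 35.0, 16.1 and 49.2 FPKM in Luc (log2 difference 1.32, SE 0.31, limma adjusted p = 0.0448). The call of Plec ended when clone was a block (0.0578) and without any 1 of cFos 2, cFos 4, cFos 8, cFos 12, Luc 2 or Luc 4 (up to 0.120). The one lower was Macf1, a plakin that links microtubules to actin, at 12.7, 14.1, 12.8 and 16.0 FPKM in cFos, against 22.4, 17.3, 21.6 and 18.7 FPKM in Luc. Its groups did not overlap, and it did not pass (log2 difference -0.51, SE 0.13, limma adjusted p = 0.0629). The tetraspanin gene Cd151, the most abundant tested gene of the list over all libraries, had 68.1 ± 28.2 FPKM in cFos and 47.5 ± 14.2 in Luc (adjusted p = 0.416).

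Of 32 other keratins 2 could be tested, and Krt13 rose. Of 16 other intermediate filament genes 7 could be tested, and Vim rose while the other 6 did not pass. Vim, vimentin, the filament protein of mesenchymal cells (chromosome 2, 13495938 to 13504453), had 4893 ± 1394 FPKM in cFos and 1481 ± 362 in Luc (log2 difference 1.72, limma adjusted p = 0.00676), so the mesenchymal filament transcript exceeded the keratin sum in every library. Of 22 cornified envelope genes in the tables, 5 could be tested and none passed. At an unadjusted p under 0.05 in limma 4 were higher, a count without a share over all tested genes, from which nothing is read. The most abundant, Cstb, a protease inhibitor, had 167 ± 33.4 FPKM in cFos and 179.9 ± 46.8 in Luc (adjusted p = 0.872). Under the clone block Cdsn, corneodesmosin, and Sbsn, suprabasin, both glycoproteins of cornifying skin, rose (adjusted p = 0.0109 and 0.0209). Cdsn had 34.5, 35.5, 11.9 and 71.7 FPKM in cFos 2, 4, 8 and 12, against 5.41, 9.30, 1.495 and 36.0 FPKM in Luc, higher in cFos in each clone with overlapping groups.

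Of 15 adherens junction genes 11 could be tested, 1 fell and none rose. Ctnnd1, p120 catenin, which holds classical cadherins at the membrane (chromosome 2, 84440938 to 84490897), fell to 53.5 ± 7.92 FPKM in cFos, against 90.7 ± 12.8 in Luc (log2 difference -0.76, limma adjusted p = 0.0213), a call that ended without cFos 2, cFos 4, cFos 8 or Luc 2 (up to 0.0764). Ctnnb1, beta-catenin, the close relative of plakoglobin, had 235 ± 31.1 and 218 ± 24.5 FPKM in cFos and Luc (adjusted p = 0.736). Of 16 tight junction genes 6 could be tested and none passed, with 1 higher and 1 lower at an unadjusted p under 0.05 in limma, and Tjp1 was at 16.7 ± 2.99 FPKM in cFos and 16.2 ± 1.62 in Luc. Of 21 epithelial regulators and surface genes 2 could be tested and 19 stayed below 1 FPKM in all libraries; the list summed to 16.8 to 37.1 FPKM in cFos and 8.29 to 21.2 FPKM in Luc. Klf4, a transcription factor of barrier epithelia and stem cells (chromosome 4, 55540009 to 55545347), rose to 23.3 ± 8.81 FPKM in cFos, against 4.96 ± 2.46 in Luc (log2 difference 2.16, adjusted p = 0.0108). Trp63, the p53 relative of basal epithelia, had 2.81 ± 2.11 and 7.57 ± 4.65 FPKM in cFos and Luc, lower in cFos in each clone, and fell under the clone block (adjusted p = 0.0137). With no filter on low genes Krt13, Vim, Klf4, Plec and Ctnnd1 lost their calls (adjusted p from 0.0525 to 0.200).

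**Figure D5:**
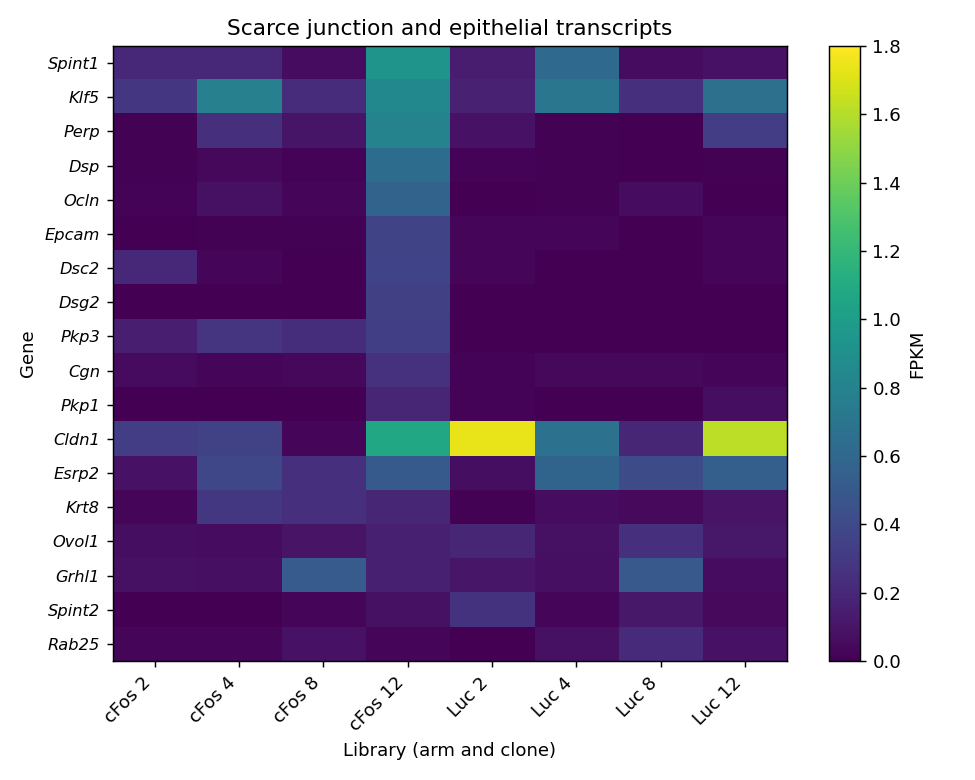
FPKM (colour) of 18 scarce members and junction or epithelial genes in each library, cFos on the left and Luc on the right. The top 11 genes are highest in cFos 12 and the 7 below them in other libraries. Of all 3586 genes whose highest value lay between 0.1 and 2 FPKM, 13.4% were highest in cFos 12 and 24.7% in Luc 8. The genes shown were chosen after the values were seen, so nothing is read from the count of 11. Dsp, Epcam, Ocln, Dsg2 and Cgn are over 4 times as high in cFos 12 as in any other library, all below 1 FPKM.

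Dsp and Pkp1 were both highest in cFos 12, and other scarce junction and epithelial genes were read beside them, a choice made after the values were seen. In cFos 12 the desmosomal cadherin Dsg2 stood at 0.341 FPKM, Epcam, an epithelial surface protein, at 0.367, Ocln, the tight junction protein occludin, at 0.572, and Cgn, cingulin, at 0.254. In the 7 other libraries the same genes reached at most 0.0049, 0.0272, 0.079 and 0.0542 FPKM. Spint1, Klf5, Perp, Dsc2 and Pkp3 were also highest in cFos 12, at 0.934, 0.839, 0.803, 0.359 and 0.335 FPKM. They exceeded the next library by 1.07 to 2.46-fold. The remaining genes of these lists whose highest value lay between 0.1 and 2 FPKM peaked elsewhere: Cldn1 and Spint2 in Luc 2, Ovol1 and Rab25 in Luc 8, Esrp2 in Luc 4, Grhl1 in cFos 8 and Krt8 in cFos 4. Of all 3586 genes in that range, 13.4% were highest in cFos 12 and 24.7% in Luc 8. In the adherens junction list, Cdh1 peaked in Luc 12 (0.326 FPKM) and Nectin4 in Luc 8 (0.141 FPKM). Krt19 and Ppl were not high in cFos 12: that library had the lowest Ppl and the second lowest Krt19 of the cFos group. The part of these scarce transcripts in the member values was not tested. Without clone 12 the members higher in cFos in each remaining clone numbered 5, a count that leaving out a clone cannot lower.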

How the data were processed

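Polyadenylated RNA of 8 cultures was extracted with a GenElute kit and made into Illumina TruSeq libraries, per the labels' protocols. The submitters' processing notes name CASAVA 1.8.2, TopHat, Cufflinks and mouse build mm9. No annotation release or strand handling is given in the sources used here. Each table lists, per the file headers, the authors' FPKM per RefSeq transcript with confidence limits, and coverage, a mean depth per base that is not normalized. No scaling between libraries is recorded.

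Of 30769 entries, 30227 were named from the RefSeq table (GRCm38.p6, for names and promoters) and 180 from GENCODE M21. FPKM was summed per symbol, and 3 genes with a failed status were dropped. Read counts were not used here, and the only intervals given are the deposited confidence limits. limma 3.58.1 in R 4.3.3 (lmFit, eBayes with trend) was run on log2(FPKM + 0.5), which understates the change of low genes, for genes reaching 1 FPKM in 4 or more libraries, two-sided, with Benjamini-Hochberg adjusted p under 0.05 over 11162 genes. Python 3.11.15 drew the plots. The code was tested on simulated data.

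The model had no clone term. Clone numbers pair the libraries, since both come from the same line. Deviations from group means correlated by 0.174, 0.593, 0.349 and 0.437 within clones 2, 4, 8 and 12, and a second model held clone as a block. Alternatives were other pseudocounts, filters and scaling, the top transcript per gene, and each library left out.

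The members and lists were chosen with earlier results of these data known. Named are all members, up to 4 called genes per list with the same sign in all clones plus its most abundant tested gene, genes within 2 kb of a member, and the 3 genes most like each tested member. Other list genes named for their values were chosen after those were seen. Of the listed genes, Flg, Sprr2a1, Muc16, Cd68 and Hbb-b1 were not analysed here.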

Additional observations from a re-analysis of the deposited data

Results flagged for a closer look

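In 4 of 42 sets of 4 libraries, 1 library lay far from the other 3, where chance alone marks about 1 set in 20. Dsp was at 0.633 FPKM in cFos 12, against 0.0140 to 0.0379 FPKM in the other cFos libraries. Pkp1 was at 0.193 FPKM in cFos 12 and listed at 0 in the 3 others, where the rule marks any value above 0. Ppl was at 2.10 FPKM in Luc 4, against 0.734 to 0.952 FPKM in the other Luc libraries, and Luc 4 also had the highest Krt19 and Krt13 of its group. Ctnnd1 was at 65.3 FPKM in cFos 12, against 48.6 to 51.3 FPKM in the other cFos libraries.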

How the results depend on the processing

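The number of members higher in cFos in every clone was 5, and 5 to 7 without 1 library, where that library's clone is left out. It was 5 without clone 8 and without clone 12, both chosen after seeing the data. Leaving out a clone can keep or raise this count but cannot lower it, so these counts do not show how stable it is. The log2 difference of Ppl ranged from 4.41 to 5.22 and that of Krt19 from 3.11 to 4.43 over 12 alternatives. The clone block, counted among them, cannot change a difference, since each clone has 1 library of each virus. Low values moved with the pseudocount: at 0.1 FPKM the log2 differences of Krt18, Dsp, Krt8 and Evpl were 1.98, 0.80, 0.82 and -0.22, against 1.10, 0.32, 0.30 and -0.06 at 0.5. Genes called higher in cFos numbered 326, with 503 under the clone block (replicate block), 164 with no filter and 150 to 319 without 1 library. Genes called lower numbered 293, with 478 under the block, 83 with no filter and 85 to 295 without 1 library. Listed genes called higher numbered 5, with 3 under no filter (Itga6, Eppk1 and Pkp3) and 4 to 7 without 1 library; those called lower numbered 1, with 2 under the block and 0 to 2 without 1 library, where 4 to 9 had an unadjusted p under 0.05 in limma. In the pathway and marker lists the block changed the calls of Plec, Cdsn, Sbsn, Trp63 and Snai2 and no others. Genes called between clones numbered 54, with 6 at a minimum of 5 FPKM and 0 to 115 without 1 library; the counts of 0, in limma without cFos 4, Luc 4 or Luc 12, had 933 to 1462 genes at an unadjusted p under 0.05. The cause of these shifts was not tested. Evpl, Dsp, Pkp1 and Krt8, below 1 FPKM throughout, and Krt18, listed at 0 in Luc 2 and Luc 4, have too little depth for precise ratios.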
